A study of Mus musculus with 9 samples.

Results

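The 31 genes described here make cholesterol and fatty acids or control that synthesis under the sterol regulatory element-binding proteins (SREBPs). They were taken by gene symbol from a table of 49671 mouse genes and followed in microglia, the macrophages that live in brain tissue, at 7, 30 and 90 days after a traumatic brain injury. Of them 23 belong to the sterol arm: 7 mevalonate enzymes, 11 enzymes from squalene to cholesterol, and 5 genes of sterol sensing and transport. The other 8 belong to the fatty acid arm. All 31 were found in the table, and 30 passed the filter on low values, 22 of the sterol arm and all 8 of the fatty acid arm. The enzyme Idi1, which isomerizes the isoprene unit after the mevalonate steps, was listed at 0 in all 9 libraries and was not tested. Why it was at 0 was not tested.

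SREBPs are transcription factors held in the membrane of the endoplasmic reticulum. When membrane sterol is low, the escort protein Scap carries them to the Golgi, where proteases release the active domain. When sterol is high, the Insig proteins hold Scap back. SREBP2, from Srebf2, mainly drives the sterol arm, and the SREBP1c form from Srebf1 mainly drives the fatty acid arm, with liver X receptors (LXRs) acting on Srebf1. In the brain cholesterol is made locally, since lipoproteins do not cross the blood-brain barrier, and microglia take up myelin and cell debris rich in cholesterol after injury.

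Each of the 9 libraries came from 1 mouse, with 3 mice at day 7, 3 at day 30 and 3 at day 90. All were male C57BL/6 (CD45.2) mice. At 8 weeks of age they were irradiated with the head shielded, given busulfan and transplanted with CD45.1 marrow from B6.SJL-Ptprca Pepcb/BoyJ donors, then kept on trimethoprim/sulfamethoxazole. At 16 weeks they were anesthetized with ketamine and xylazine, received a controlled cortical impact and were given buprenorphine. CD45.2 microglia were sorted from the brain, so that cells derived from the donor marrow fall outside the gate, while host CD45.2 leukocytes that survived ablation would not. No uninjured or sham-operated library was analysed here, so each comparison is between times after injury. Later mice were also older at harvest, and age cannot be told apart from time since injury.

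Levels are read counts per 1000000 counted reads (CPM) from 3' mRNA libraries. Depth was 7210985 to 12965926 counted reads a library. The 12 microglia markers, such as P2ry12 and Cx3cr1, summed to 15661 to 23114 CPM per library. Among leukocyte markers, the 8 of T and NK cells summed to at most 9.99 CPM per library, the 9 of neutrophils to 1.61 to 247 CPM, the 8 of monocytes to 118 to 253 CPM and the 8 of border-associated macrophages to 186 to 303 CPM. Markers of other brain cells were present in every library: the 12 neuron markers summed to 941 to 3026 CPM, the 12 endothelial and pericyte markers to 1255 to 3752 CPM, and the 12 oligodendrocyte markers to 186 to 386 CPM. In bulk RNA fewer cells of a type and less RNA per cell cannot be told apart. The day 90 replicate 1 library stood apart from the rest. Its median correlation with the other libraries over tested genes was 0.837, against 0.866 to 0.887 for the other 8. It had the highest endothelial and pericyte sum, 3752 CPM, the lowest neuron sum, 941 CPM, and the lowest oligodendrocyte sum, 186 CPM. Its microglia marker sum, 16097 CPM, ranked 8 of 9 from the highest. It also had the fewest genes with a read, 14039, against 14898 to 17334 in the other 8. The 10 astrocyte markers summed to 459 to 719 CPM per library and were also highest in day 90 replicate 1.

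Promoter sequence is shown for the genes at the centre of each arm, so that the letters SREBPs and their partners read can be seen beside the expression values. The SREBP site searched was TCACNCCAC, the E-box was CACGTG, which SREBP1 can also bind, and the CCAAT box, bound by NF-Y, was CCAAT. These 3 motifs were read on both strands and stand in capitals below. The stretches are 150 bases each, from RefSeq on GRCm38.p6, written 5' to 3' on the gene's strand. Each ends at the base before the RefSeq start of the transcript, apart from those of Insig1 and Srebf2, which begin earlier in GENCODE M21. Their stretches end at the base before that earlier start, 50 and 89 bases before the RefSeq start. Where a gene had several windows, the one with the most matches is shown. The Srebf1 stretch lies inside the gene (chr11:60199089-60222581), before an internal start.
Hmgcs1 (chr13:119690201-119690350, plus strand): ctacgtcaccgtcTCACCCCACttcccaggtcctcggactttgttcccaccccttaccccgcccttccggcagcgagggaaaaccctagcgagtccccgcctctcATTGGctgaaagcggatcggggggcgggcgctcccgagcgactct
Insig1 (chr5:28071213-28071362, plus strand): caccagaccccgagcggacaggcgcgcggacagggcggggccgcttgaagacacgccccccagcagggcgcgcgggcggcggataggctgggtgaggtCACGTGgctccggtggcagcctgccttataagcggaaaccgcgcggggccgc
Srebf2 (chr15:82147031-82147180, plus strand): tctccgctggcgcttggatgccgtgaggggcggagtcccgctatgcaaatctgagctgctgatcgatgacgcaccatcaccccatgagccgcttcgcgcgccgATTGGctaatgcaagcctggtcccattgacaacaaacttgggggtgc
Fasn (chr11:120824548-120824697, minus strand): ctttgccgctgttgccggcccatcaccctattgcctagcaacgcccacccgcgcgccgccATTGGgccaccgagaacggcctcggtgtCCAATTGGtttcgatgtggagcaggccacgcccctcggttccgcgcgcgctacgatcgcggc
Srebf1 (chr11:60210472-60210621, minus strand): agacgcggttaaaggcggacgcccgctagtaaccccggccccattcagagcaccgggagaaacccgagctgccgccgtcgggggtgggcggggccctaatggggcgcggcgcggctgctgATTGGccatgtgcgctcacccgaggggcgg

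In the Hmgcs1 stretch the capitals mark an SREBP site that begins 137 bases before the start and a CCAAT box on the opposite strand. Insig1 shows an E-box. Srebf2 and Srebf1 each show a CCAAT box on the opposite strand, and Fasn shows 3 CCAAT matches, of which a pair overlaps in one run of capitals. Of the 31 genes 24 had a promoter in the RefSeq table. A gene was counted if any of its windows of 250 bases before a start held the motif. Hmgcs1 alone of 19 sterol promoters (5.26%) held the exact SREBP site, against 1.25% of 10314 tested genes, and none of the 5 fatty acid promoters held it. CCAAT was in 17 of 19 sterol promoters (89.5%) and 2 of 5 fatty acid promoters (40%), against 40.1% of tested genes. The E-box was in 5 of 19 sterol promoters (26.3%), those of Dhcr7, Hsd17b7, Insig1, Sc5d and Scap, and in none of the fatty acid promoters, against 9.81% of tested genes. The GC box GGGCGG, bound by Sp1, was in 18 of 19 sterol promoters (94.7%) and 3 of 5 fatty acid promoters (60%), against 63.5% of tested genes. These matches describe the letters in the window and were not tested.

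The first comparison asks whether either arm differed between times after injury. No tested gene of either arm passed the threshold (limma, Benjamini-Hochberg adjusted p under 0.05 over 15041 genes) in any pairwise comparison or in the F-test over the 3 time points. The background was also low. At that threshold 0% of tested genes were called between day 30 and day 7, 0.246% (37 genes) between day 90 and day 7, 0.0532% (8 genes) between day 90 and day 30, and 0.173% (26 genes) by the F-test. At an unadjusted p under 0.05, the calls were Fdft1 and Fasn between day 30 and day 7, where 6.24% of tested genes were called. Between day 90 and day 7 Fdft1 was called, where 7.73% of tested genes were, and between day 90 and day 30 no gene of either arm was, where 5.03% were. By the unadjusted F-test Fdft1 was called, beside 6.87% of tested genes. These are 2, 1, 0 and 1 of 30, near or under the background share. edgeR and DESeq2, run on the recovered reads, also called 0 of the 30 in each comparison. The smallest adjusted p of any of the 30 over the 18 alternative settings was 0.469. Each limma p-value and interval sets a difference against a moderated spread. That spread combines the gene's own 3 mice a time (6 residual degrees of freedom) with genes of similar level (28.4 prior degrees of freedom).

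**Figure D1:**
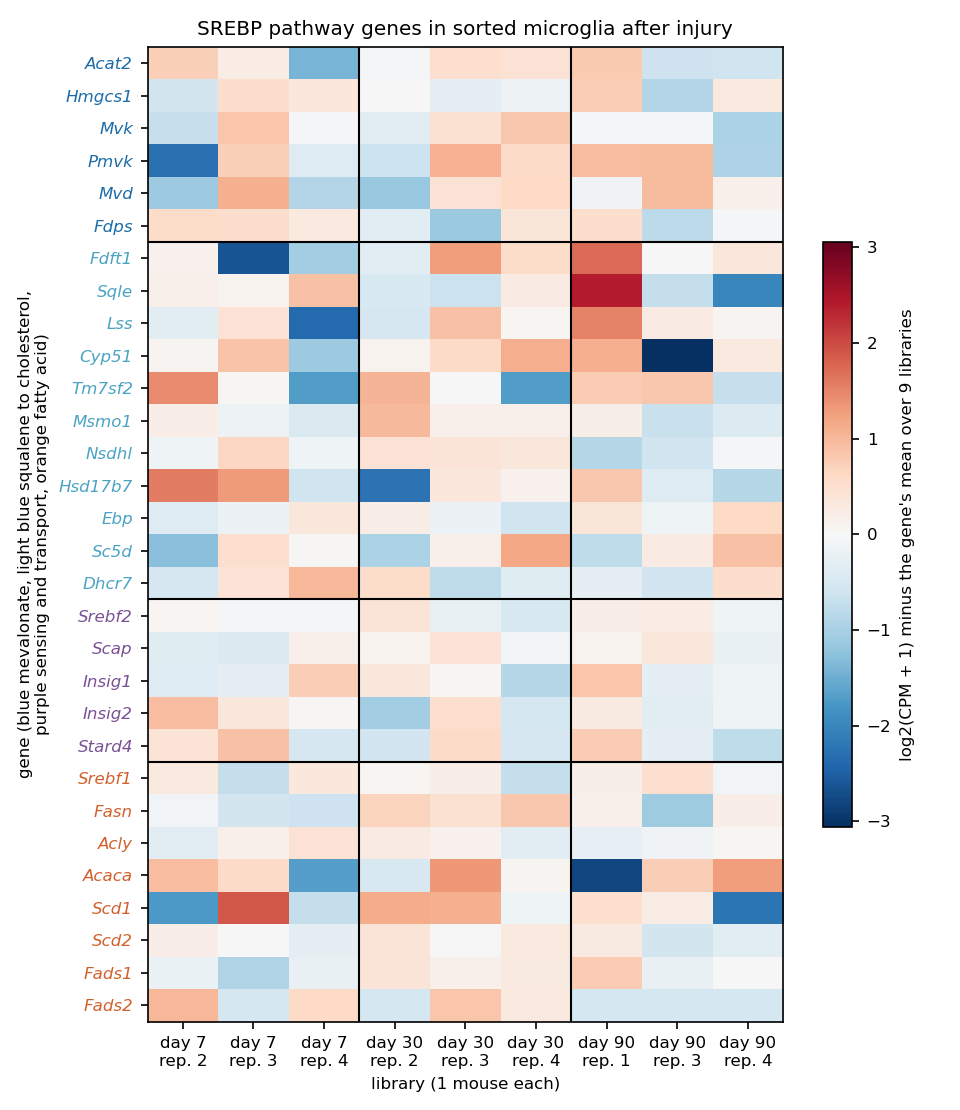
Each row is 1 of the 30 tested genes, each column 1 of the 9 libraries, and the colour is log2(CPM + 1) minus the gene's mean over the libraries. Sqle, Fdft1 and Lss are highest in day 90 replicate 1, and Fasn is highest in the 3 day 30 libraries.

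Summed over the 23 genes, the sterol arm had 400, 469 and 421 CPM in the day 7 libraries, 455, 475 and 406 CPM at day 30 and 591, 385 and 405 CPM at day 90. The means were 430 ± 35.3 CPM at day 7, 445 ± 35.7 CPM at day 30 and 460.5 ± 114 CPM at day 90 (SD, n = 3 each). The 591 CPM of day 90 replicate 1 lies above the other 8 libraries, and the other day 90 libraries lie within or below the range of the earlier times. The 8 fatty acid genes summed to 316, 287 and 303 CPM at day 7, 388, 350 and 323 CPM at day 30 and 348, 271 and 292 CPM at day 90. Their means were 302 ± 14.1 CPM at day 7, 354 ± 32.7 CPM at day 30 and 304 ± 40.2 CPM at day 90 (SD, n = 3 each). All 3 day 30 sums lie above the 3 day 7 sums, and the day 90 sums overlap both. These sums got no test, since the genes were chosen with earlier results known.

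**Figure D2:**
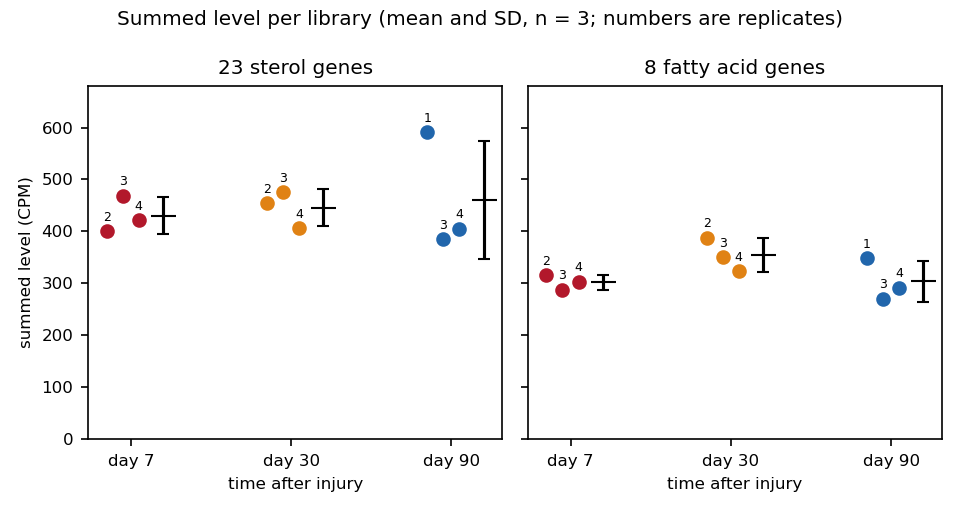
Points are the summed CPM of 23 sterol genes (left) and 8 fatty acid genes (right) in each library, numbered by replicate, with the mean and SD of 3 beside them. Day 90 replicate 1 is the highest sterol point, 591 CPM.

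The arms were next counted gene by gene. Against day 7, 11 of 22 sterol genes were higher and 11 lower at day 30, with a median log2 change of 0.08, and 11 were higher and 11 lower at day 90, with a median of -0.02. Against day 30, 15 were higher and 7 lower at day 90, with a median of 0.19. That median was -0.07 without day 90 replicate 1, -0.11 without day 30 replicate 2 and -0.17 with a replicate block. Only day 90 has a replicate 1, so the block in effect also sets that library aside. Without day 90 replicate 1 the sterol median of day 90 against day 7 was -0.37. Of the 8 fatty acid genes, 5 were higher and 3 lower at day 30 against day 7, with a median of 0.31, 3 were higher and 5 lower at day 90 against day 7, with a median of -0.18, and 1 was higher and 7 lower at day 90 against day 30, with a median of -0.50. The fatty acid median of day 90 against day 30 changed to -0.54 when day 90 replicate 1 was dropped and to -0.29 when day 30 replicate 3 was dropped. It lay between -0.62 and -0.29 over all such omissions. It was -0.69 with a pseudocount of 0.1 CPM, -0.18 with a pseudocount of 5 CPM, -0.27 with a filter at 10 CPM, -0.24 after quantile normalization, -0.27 in edgeR and -0.25 in DESeq2. At day 90 against day 7 its sign changed with that filter, with quantile normalization, in edgeR and in DESeq2, where it was 0.0006 to 0.0128, and it was -0.18 to 0.12 when 1 library was left out. Over all 15041 genes the median was 0.04 at day 30 against day 7, -0.02 at day 90 against day 7 and -0.06 at day 90 against day 30. At day 30 the summed neuron markers averaged 2190 CPM, against 1187 CPM at day 7, and at day 90 they averaged 1266 CPM. Most of that sum was the single gene Meg3, at 1792 CPM at day 30, 945 CPM at day 7 and 1000 CPM at day 90. All 12 neuron markers were higher at day 30 than at day 7, with none past the threshold. The part of the neuron markers in the fatty acid medians was not tested. The difference between the arms was not tested.

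**Figure D3:**
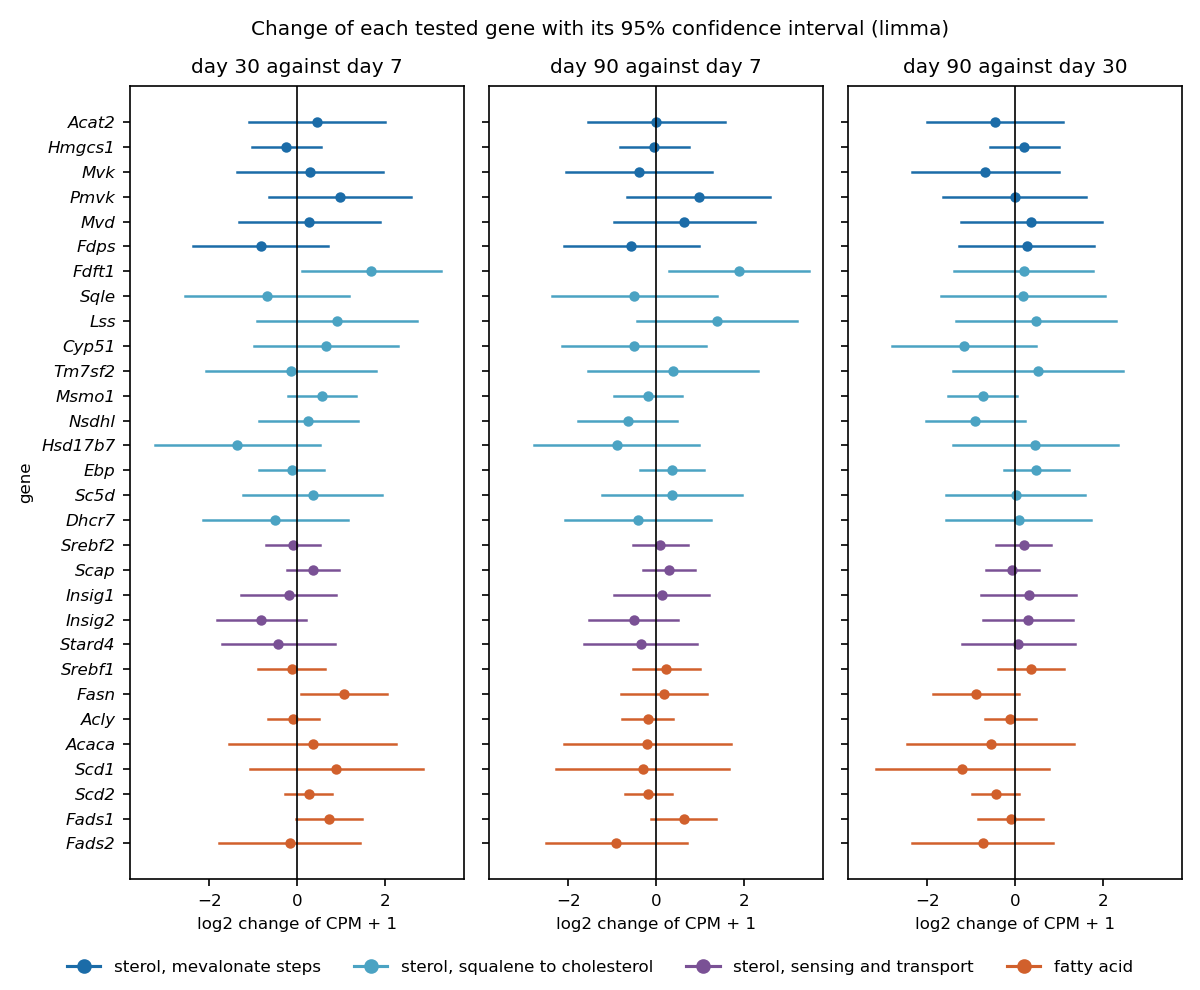
Points are the log2 change of CPM + 1 for each tested gene in the 3 comparisons, and lines are the 95% confidence intervals from limma. Nearly all lines cross 0; those of Fdft1 in both comparisons with day 7 and of Fasn in day 30 against day 7 do not, before adjustment for the 15041 genes tested.

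Among the mevalonate enzymes, Hmgcs1, the synthase that makes the precursor of mevalonate, had 30.3, 67.0 and 56.7 CPM at day 7, 45.3, 36.9 and 40.8 CPM at day 30 and 78.0, 24.0 and 56.1 CPM at day 90. The day 30 libraries were close together and lay inside the range of both other times. Its log2 change was -0.25 at day 30 against day 7 (95% interval -1.03 to 0.53) and -0.04 at day 90 against day 7 (-0.82 to 0.74). The second interval lies within a doubling or a halving, and without day 90 replicate 1 that change was -0.40. The other 5 tested enzymes of these steps had fewer reads, and their intervals reached beyond a doubling or a halving. Acat2, a thiolase, ranged from 2.39 to 14.8 CPM over the 9 libraries, and its reads may be shared with its close paralog Acat3. The kinases Mvk and Pmvk ranged from 2.28 to 10.7 CPM and from 1.02 to 19.4 CPM. Mvd, the decarboxylase, ranged from 2.93 to 17.6 CPM. Fdps, which makes farnesyl diphosphate, ranged from 2.78 to 11.2 CPM. It shares 275 of its last 500 exonic bases with a same-strand gene model, so its level is uncertain.

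At the branch to sterols, Fdft1, squalene synthase (chr14:63145150-63179578, minus strand, mm10), had the smallest F-test p of the 30 genes. It had 9.66, 0.555 and 3.62 CPM at day 7, 6.63, 22.8 and 13.3 CPM at day 30 and 31.3, 8.73 and 11.4 CPM at day 90. Day 7 held the lowest pair, though day 7 replicate 2 lay above the lowest library of each later time, so the groups overlapped. The log2 change was 1.69 at day 30 against day 7 (95% interval 0.11 to 3.28, adjusted p = 0.771) and 1.89 at day 90 against day 7 (0.30 to 3.48, adjusted p = 0.515). Leaving out 1 library moved the day 30 change between 0.97, without day 7 replicate 3, and 2.36, without day 7 replicate 2. Without day 90 replicate 1 the day 90 against day 7 comparison gave a log2 change of 1.37 and an adjusted p of 0.688. All of the last 500 exonic bases of Fdft1 lie opposite exons of the lysosomal protease gene Ctsb. The strand setting of the counting is not given, so reads of the pair may not be separated.

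Sqle, squalene epoxidase and a slow step of the pathway, had 6.10, 5.82 and 10.8 CPM at day 7, 3.55, 3.05 and 6.57 CPM at day 30 and 32.6, 2.85 and 0.592 CPM at day 90. Day 90 held both the highest and the lowest library. Its log2 change at day 90 against day 7 was -0.49 (95% interval -2.36 to 1.38) and turned to 0.61 in edgeR, while without day 90 replicate 1 it was -1.75. Day 90 replicate 1 was the highest library for 6 of 22 sterol genes: Acat2, Hmgcs1, Fdft1, Sqle, Lss and Insig1. Lss, the cyclase that makes lanosterol, had 13.8 CPM there, against 0 to 8.61 CPM in the other 8. The same library was highest for 1 of 8 fatty acid genes, Fads1. Its marker sums of other cell types are given above, and their part in these values was not tested.

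Msmo1, the sterol C4-methyl oxidase, had 42.5, 32.9 and 26.5 CPM at day 7, 73.0, 41.0 and 41.1 CPM at day 30 and 41.7, 22.5 and 26.9 CPM at day 90. Day 90 replicate 1 lay inside the day 30 range and the other pair of day 90 libraries below it, and the log2 change at day 90 against day 30 was -0.74 (95% interval -1.52 to 0.04, adjusted p = 0.955), or -0.99 without that library. Nsdhl, the dehydrogenase that acts in the same demethylation, had 13.9, 24.3 and 13.9 CPM at day 7, 20.9, 20.2 and 19.7 CPM at day 30 and 7.94, 9.58 and 14.5 CPM at day 90. All 3 day 90 libraries lay below the 3 day 30 libraries, with a log2 change of -0.91 (95% interval -2.03 to 0.22, adjusted p = 0.959), or -0.73 without day 90 replicate 1. No other sterol gene had groups that stayed apart in any of the 3 comparisons. Of tested genes, 9.93% had groups that did not overlap between day 90 and day 30, 12.6% between day 30 and day 7 and 11.7% between day 90 and day 7, against 2, 2 and 0 of the 30 genes of both arms.

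The other enzymes between squalene and cholesterol ranged widely over the 9 libraries, apart from Ebp. Cyp51, lanosterol demethylase, ranged from 0.38 to 23.9 CPM, with its lowest value in day 90 replicate 3 and 23.6 CPM in day 90 replicate 1. It shares 166 of its last 500 exonic bases with the antisense gene Akap9. Hsd17b7, a sterol ketoreductase, had the most negative log2 change of the arm at day 30 against day 7, -1.36 (95% interval -3.24 to 0.52), and ranged from 0 to 13.1 CPM. Tm7sf2, a sterol reductase, ranged from 0 to 7.93 CPM. Sc5d, the lathosterol oxidase, ranged from 2.75 to 19.4 CPM, and Dhcr7, which makes cholesterol in the last step of one branch, from 2.96 to 12.6 CPM. Ebp, the sterol isomerase, was steadier, at 40.2 ± 11.3 CPM at day 7, 37.0 ± 10.7 CPM at day 30 and 51.8 ± 13.03 CPM at day 90 (SD, n = 3 each).

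Srebf2 and Scap varied least between mice among the sterol genes. Srebf2 had 64.1, 59.5 and 59.5 CPM at day 7, 80.2, 52.4 and 44.0 CPM at day 30 and 70.0, 71.5 and 55.9 CPM at day 90. The libraries of the 3 times overlapped throughout. Its log2 change was -0.10 at day 30 against day 7 (95% interval -0.72 to 0.53) and 0.10 at day 90 against day 7 (-0.52 to 0.72). Scap averaged 62.5 ± 15.5 CPM at day 7, 79.8 ± 14.7 CPM at day 30 and 76.6 ± 14.9 CPM at day 90 (SD, n = 3 each). For Srebf2 and Scap all 3 intervals lie within a doubling or a halving. These are mRNA levels, and SREBP cleavage, which sets its activity, was not measured.

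Insig1, itself a target of SREBP2, had 14.2, 15.1 and 32.6 CPM at day 7, 24.3, 19.5 and 9.81 CPM at day 30 and 35.1, 15.3 and 17.3 CPM at day 90. The libraries of the 3 times overlapped, and the log2 change at day 90 against day 7 was 0.13 (95% interval -0.96 to 1.21), or -0.23 without day 90 replicate 1. Insig2, the paralog, had 41.2, 26.9 and 21.4 CPM at day 7, 9.41, 30.1 and 14.0 CPM at day 30 and 25.6, 16.1 and 18.9 CPM at day 90, with a log2 change of -0.81 at day 30 against day 7 (95% interval -1.83 to 0.21). Stard4, a soluble carrier of cholesterol, ranged from 7.19 to 25.1 CPM.

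In the fatty acid arm, Fasn, which builds palmitate (chr11:120805846-120824547, minus strand, mm10), had the smallest F-test p of the 8 genes. It had 20.2, 14.3 and 13.5 CPM at day 7, 34.8, 29.95 and 38.5 CPM at day 30 and 23.9, 9.58 and 24.9 CPM at day 90. All 3 day 30 libraries lay above those of both other times, while day 90 and day 7 overlapped. The log2 change was 1.07 at day 30 against day 7 (95% interval 0.09 to 2.06, adjusted p = 0.760) and -0.89 at day 90 against day 30 (-1.88 to 0.09, adjusted p = 0.955). Leaving out any 1 library kept the first between 0.97 and 1.24 and the second between -1.12 and -0.47, with no adjusted p under the threshold.

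Fads1, the delta-5 desaturase of polyunsaturated fatty acids, had 35.1, 21.1 and 34.4 CPM at day 7, 53.8, 45.3 and 49.5 CPM at day 30 and 70.0, 34.5 and 40.1 CPM at day 90. Its day 30 libraries lay above all 3 day 7 libraries, with a log2 change of 0.73 (95% interval -0.01 to 1.47, adjusted p = 0.796). At day 90 against day 7 the log2 change was 0.63 (-0.12 to 1.37, adjusted p = 0.714), and it was 0.33 (adjusted p = 0.880) without day 90 replicate 1, its highest library. Scd2, a stearoyl-CoA desaturase prominent in mouse brain, had 128, 111.5 and 89.4 CPM at day 7, 147, 110.5 and 137 CPM at day 30 and 134, 75.1 and 87.7 CPM at day 90. Its groups overlapped, and its intervals lay within a doubling or a halving in all 3 comparisons. The log2 change was -0.44 at day 90 against day 30 (95% interval -0.98 to 0.10), or -0.68 without day 90 replicate 1.

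Srebf1 had 53.3, 25.4 and 53.8 CPM at day 7, 44.6, 49.6 and 25.3 CPM at day 30 and 48.5, 61.3 and 40.4 CPM at day 90. Each time covered much of the same range, and the log2 change was 0.23 at day 90 against day 7 (95% interval -0.52 to 0.99). It shares 109 of its last 500 exonic bases with the antisense gene Rai1. Acly, which makes cytosolic acetyl-CoA for both arms, averaged 86.5 ± 22.0 CPM at day 7, 81.0 ± 16.8 CPM at day 30 and 74.1 ± 7.74 CPM at day 90 (SD, n = 3 each), and all 3 of its intervals lay within a doubling or a halving. Acaca, acetyl-CoA carboxylase, ranged from 0.0892 CPM in day 90 replicate 1 to 17.6 CPM. Scd1, a paralog of Scd2 with which reads may be shared, ranged from 0 to 16.5 CPM. Fads2, the delta-6 desaturase, had 33 reads over the day 7 libraries, 27 at day 30 and none at day 90. It had 1.93, 0 and 1.24 CPM at day 7 and 0, 1.61 and 0.788 CPM at day 30, so that 1 library at each earlier time was also at 0. It did not pass at day 90 against day 7, with a log2 change of -0.90 (95% interval -2.51 to 0.70, adjusted p = 0.829), or against day 30, with -0.74 (-2.35 to 0.87, adjusted p = 0.971). Reads were also pooled over the 3 libraries of a time, with day 90 set at a floor of 3 reads. The Fads2 share of reads was then 13.02-fold lower than at day 7 and 8.50-fold lower than at day 30. The floor covers counting error at day 90 only, not that at the earlier time or the spread between libraries.

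**Figure D4:**
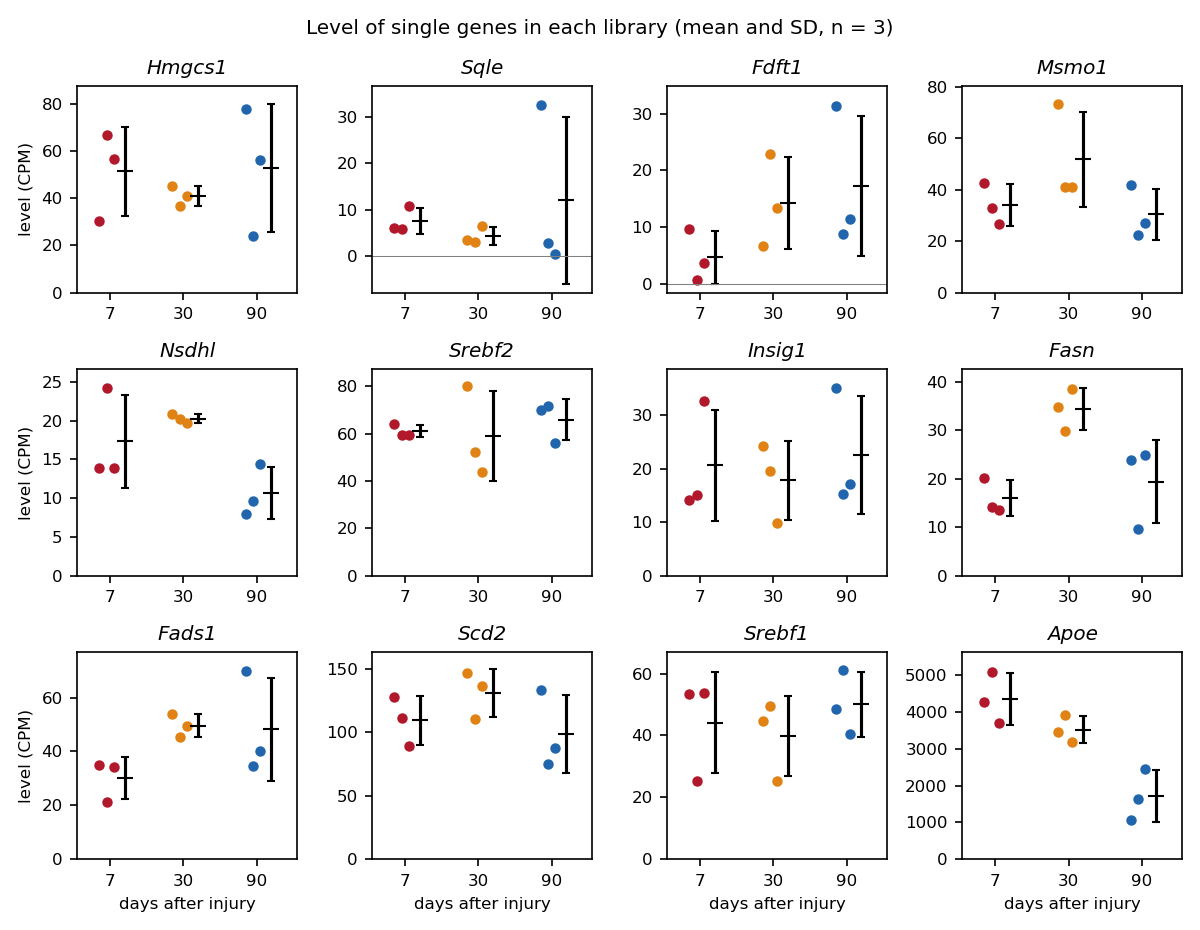
Points are the CPM of 11 pathway genes and Apoe in each library at 7, 30 and 90 days, with the mean and SD of 3 beside them. Fasn is highest in all 3 day 30 libraries, and Apoe is lowest in all 3 day 90 libraries.

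How narrowly a change could be bounded followed the level. The SD between mice of one time, on the log2 scale, had a median of 0.703 over the 22 sterol genes and 0.476 over the 8 fatty acid genes, against 0.685 over all genes tested. Of the sterol genes 15 averaged under 20 CPM, where the median SD was 0.957, against 0.981 for all genes at that level. The 3 fatty acid genes under 20 CPM had a larger median SD, 1.45. At 20 CPM or more the median SD was 0.42 for the sterol genes and 0.389 for the fatty acid genes, against 0.401 for all genes. The 95% interval lay within a doubling or a halving for 6 of 30 genes at day 30 against day 7, for 7 at day 90 against day 7 and for 6 at day 90 against day 30. For the other genes the interval also held changes larger than that.

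No gene of the wider synthesis pathway passed either. In the list of further sterol and isoprenoid synthesis and uptake genes, 0 of 9 tested genes passed in any comparison. The pair with the highest CPM were Acat1, a mitochondrial thiolase, at 74.8 ± 11.2 CPM at day 7, 57.0 ± 12.5 CPM at day 30 and 82.9 ± 42.6 CPM at day 90, and Nus1, a subunit of dolichol synthesis, at 72.0 ± 11.2 CPM, 47.0 ± 14.5 CPM and 64.6 ± 24.9 CPM (SD, n = 3 each). None of 20 further fatty acid synthesis genes passed. Among them Mid1ip1, which promotes acetyl-CoA carboxylase assembly, averaged 149 CPM at day 7, 163 CPM at day 30 and 159.5 CPM at day 90 (SDs 35.7 to 60.8 CPM, n = 3 each). None of the 14 tested genes of SREBP processing passed. The most abundant were Trib1, a pseudokinase, at 784 ± 93.9 CPM at day 7, 1051 ± 164 CPM at day 30 and 1029 ± 248 CPM at day 90, and Vcp, the ATPase that extracts proteins from the membrane, at 247 ± 20.0 CPM, 280.0 ± 11.7 CPM and 254 ± 46.2 CPM (SD, n = 3 each).

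Of the lists of lipid genes, the one of LXRs, RXRs and their targets, which include genes of cholesterol efflux and lipid transport, held the genes that passed. Of its 13 tested genes, 2 passed as lower at day 90 against day 7, none passed as higher, and 1 passed as lower at day 90 against day 30. Of all tested genes, 0.246% passed at day 90 against day 7 and 0.0532% at day 90 against day 30. Apoe, the main apolipoprotein of the brain, had 4283, 5103 and 3701 CPM at day 7, 3448, 3921 and 3201 CPM at day 30 and 1065, 1630 and 2463 CPM at day 90. All 3 day 90 libraries lay below the other 6. The log2 change was -1.41 at day 90 against day 7 (95% interval -1.88 to -0.95, limma adjusted p = 0.000695) and -1.11 at day 90 against day 30 (-1.57 to -0.65, limma adjusted p = 0.0446). The first passed in 17 of 18 alternative settings (adjusted p 1.06e-06 to 0.453) and the second in 5 of 18 (0.00254 to 1.00). The exception for the first was the fit with no filter. Without day 90 replicate 1 the second was -0.81 with an adjusted p of 0.495, and with the replicate block it was -0.82 with an adjusted p of 1.00. The block in effect also sets day 90 replicate 1 aside, so these 2 fits are not separate checks. Plin2, a lipid droplet coat protein, had 176, 183 and 120 CPM at day 7, 44.3, 67.8 and 79.6 CPM at day 30 and 37.2, 52.3 and 45.4 CPM at day 90. Its day 7 libraries lay above the other 6, and the log2 change at day 90 against day 7 was -1.79 (95% interval -2.39 to -1.20, limma adjusted p = 0.000832), past the threshold in 17 of 18 settings (2.68e-06 to 0.151). The whole list had a median log2 change of -0.28 at day 90 against day 7, with 4 of 13 higher and 9 lower. The monocyte markers summed to 140 CPM at day 90, against 247 CPM at day 7, and the neutrophil markers to 35.0 CPM, against 145 CPM, on average. Most of the monocyte sum was the single gene Fn1, at 116 CPM at day 90 and 205 CPM at day 7. The part of these markers in the falls of Apoe and Plin2 was not tested. Both genes had been picked out in an earlier analysis of these data. That the synthesis genes differed from these 2 was not tested.

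**Figure D5:**
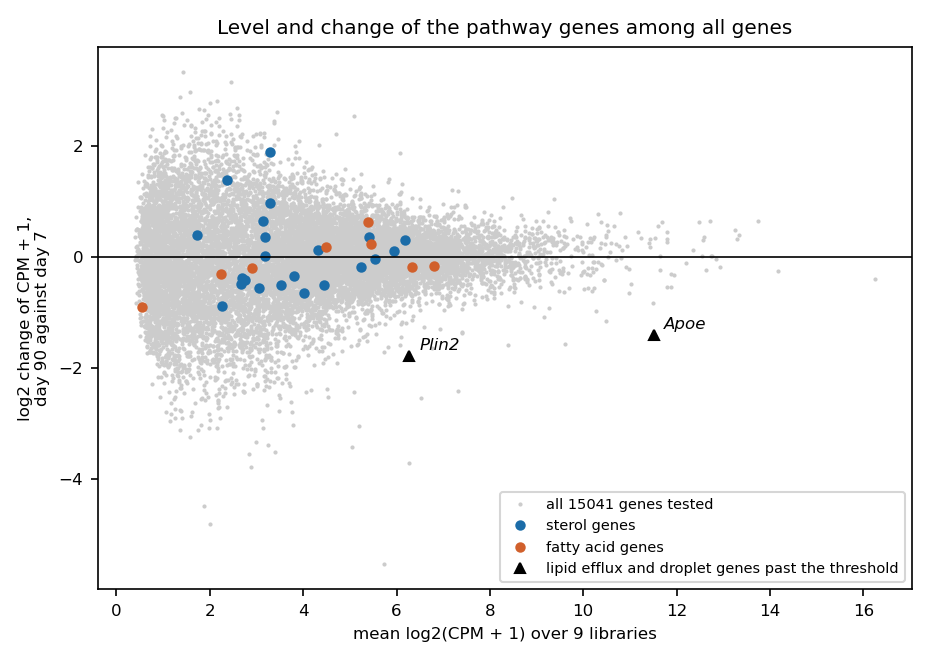
Each grey point is 1 of 15041 tested genes, placed by its mean log2(CPM + 1) and its log2 change at day 90 against day 7. The sterol and fatty acid genes lie within the grey cloud at their level, between -0.90 and 1.89, while Apoe lies at -1.41 and Plin2 at -1.79.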

How the data were processed

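The deposited table holds counts per 1000000 reads (CPM), made by the authors with bcl2fastq, STAR and HTSeq on mm10, per the submitters' processing notes. The versions, annotation and counting strand were not given in the sources used here. RNA was PicoPure-extracted and sequenced as QuantSeq 3' libraries, per the labels' protocols. All CPM values were whole reads (100%, tolerance 1e-06) after division by the value of 1 read, which gave 97458865 reads in all. Every per-sample column was used.

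Genes that reached 1 CPM in 3 or more libraries were tested on log2(CPM + 1), a scale that understates changes of low genes. limma 3.58.1 in R 4.3.3 fitted 1 mean per time over 9 libraries with a mean trend (6 residual and 28.4 prior degrees of freedom), two-sided, with Benjamini-Hochberg adjustment over 15041 genes. The fit was tried on simulated data with known changes at day 90, placed only in genes above 20 CPM. Recovery of changes in lower genes, which include 15 of the 22 tested sterol genes, was not simulated. Alternatives were other pseudocounts, filters and scalings, edgeR 4.0.16, DESeq2 1.42.0, a replicate block and leaving out each library.

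Every library value was given for the 3 sterol and 2 fatty acid genes with the smallest F-test p and for Srebf2, Insig1, Hmgcs1, Sqle, Srebf1, Fasn and Scd2. From other lists, genes past the threshold or otherwise the most abundant were named; Insig2 was added after its values were seen. The 31 genes and all lists were chosen with earlier results of these data known. Antisense and same-strand overlaps were read from GENCODE M21.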

Additional observations from a re-analysis of the deposited data

How the results depend on the processing

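No gene of either arm was called under any of the 18 alternatives, and the counts over all tested genes moved as follows. For day 30 against day 7 the count of 0 was 3 with a pseudocount of 5 CPM, 2 with quantile normalization, 34 in DESeq2 and 10 with the replicate block. For day 90 against day 7 the count of 37 was 1 with no filter, 22 in edgeR and 130 in DESeq2. For day 90 against day 30 the count of 8 was 0 with no filter and 27 in DESeq2. For the F-test the count of 26 was 15 with a pseudocount of 0.1 CPM, 0 with no filter, 16 in edgeR and 53 in DESeq2. Leaving out 1 library gave 0 to 8 calls for day 30 against day 7, 18 to 62 for day 90 against day 7, 4 to 18 for day 90 against day 30 and 11 to 52 for the F-test. Without day 90 replicate 1 there were 8, 62, 7 and 52 in that order. The day 90 against day 7 count was 18 without day 7 replicate 2 and 24 with any 1 of day 7 replicates 3 and 4 or day 90 replicate 3 left out. The day 90 against day 30 count was 5, 4 and 5 without day 30 replicates 2, 3 and 4, and 18 without day 90 replicate 4. The F-test gave 11, 15 and 13 without day 7 replicates 2, 3 and 4. The cause of these shifts was not tested.

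The fatty acid median for day 90 against day 7 was 0.0006 with a filter at 10 CPM, 0.0120 with quantile normalization, 0.0033 in edgeR and 0.0128 in DESeq2, and -0.18 to 0.12 when 1 library was left out. That for day 90 against day 30 was -0.69 and -0.18 with pseudocounts of 0.1 and 5 CPM, -0.27 with a filter at 10 CPM, -0.24 with quantile normalization, -0.27 in edgeR, -0.25 in DESeq2, and -0.62 to -0.29 when 1 library was left out. For day 30 against day 7 leaving out 1 library gave 0.11 to 0.44. The sterol median for day 90 against day 30 was -0.17 with the replicate block.

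Several single genes, none of them called, changed sign. With the replicate block, Insig1 was at -0.20 for day 90 against day 7, and for day 90 against day 30 Fdft1 was at -0.20, Insig1 at -0.019, Hmgcs1 at -0.28 and Sqle at -1.17. The block changed no call of the 30 genes. Replicate number 1 occurs only at day 90, so the block fits that library exactly and in effect sets it aside. Over all tested genes, same-numbered libraries did not deviate together (correlation -0.0446 to 0.0389). A correlation over all genes cannot tell whether the numbers pair the mice in some way that touches fewer genes. For day 90 against day 7 Hmgcs1 was at 0.017 in edgeR and 0.033 in DESeq2, and Sqle at 0.61 and 0.65. Sqle was at -0.067 for day 90 against day 30 with a pseudocount of 0.1 CPM. When 1 library was left out, the ranges for day 30 against day 7 were -0.34 to 0.087 for Srebf2, -0.44 to 0.18 for Insig1 and -0.47 to 0.17 for Srebf1. Those for day 90 against day 7 were -0.42 to 0.0058 for Msmo1, -0.047 to 0.60 for Fasn, -0.23 to 0.49 for Insig1, -0.40 to 0.43 for Hmgcs1, -1.75 to 0.45 for Sqle and -0.12 to 0.41 for Srebf1. Those for day 90 against day 30 were -0.32 to 0.59 for Fdft1, -0.40 to 0.10 for Fads1, -0.047 to 0.57 for Insig1, -0.15 to 0.68 for Hmgcs1 and -1.07 to 1.13 for Sqle. Depth limits Fads2, with 60 reads in all.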

Other observations

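Genes that esterify, hydrolyse and export sterol formed a further list of 20, of which 17 were tested and 0 passed in any comparison. Npc2, the soluble lysosomal cholesterol carrier, had 1541, 1441 and 1380 CPM at day 7, 1272, 1128 and 1344 CPM at day 30 and 753, 1125 and 1119 CPM at day 90. All 3 day 90 libraries lay below the 3 day 30 libraries and the 3 day 7 libraries, with a log2 change of -0.56 at day 90 against day 7 (95% interval -0.96 to -0.17, limma adjusted p = 0.348). Lrp1, a receptor that takes up Apoe-bearing particles, averaged 1436 ± 93.8 CPM at day 7, 1371 ± 178 CPM at day 30 and 1305 ± 235 CPM at day 90 (SD, n = 3 each). Genes of the tissue dissociation response summed to 31063 CPM at day 7, 36382 CPM at day 30 and 42102 CPM at day 90, and 10 of 10 were higher at day 90 than at day 7, with none past the threshold. Their part in the lipid gene values was not tested.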
